A study of Homo sapiens with 6 samples.

Results

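The regions described here are CpG-rich promoters of protein-coding genes that carried no SMARCA4 peak in K562 cells. Of 19229 protein-coding genes on the autosomes, 10108 had a CpG-rich promoter, which means at least 55% GC and a CpG observed/expected ratio of at least 0.6 within 500 bp of the gene 5′ end. The members were chosen by the peak list itself: a promoter was a member when no peak overlapped the 1 kb on either side of its 5′ end. By this rule 3742 of the 10108 promoters (37.0%, 95% Wilson interval 36.1 to 38.0%) had no peak and 6366 had one. Among the 9121 promoters that were not CpG-rich, 7132 (78.2%) had no peak. The peak list set these counts, so they are a description and were not tested.

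K562 is an established human leukaemia cell line with erythroid features, and SMARCA4 was recovered from it by chromatin immunoprecipitation and sequencing (ChIP-seq). The 6 libraries comprised 3 SMARCA4 ChIP libraries and 3 input libraries, the latter sequenced without the antibody step, and proteins were fixed to DNA in 2 steps, 30 min in 2 mM disuccinimidyl glutarate followed by 10 min in 1% formaldehyde. The deposited list, with 27664 peaks on autosomes, holds regions found in at least 2 of the 3 ChIP replicates, which the design text calls technical and the paper calls biological. The list pools them, so no value has an SD between replicates.

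CpG-rich promoters, or CpG islands, keep an open chromatin structure in most cells because their CpGs are largely unmethylated, and broadly expressed genes usually start in them. Many genes that act only in particular tissues or at particular stages of the embryo also start in CpG islands, where Polycomb complexes can hold them silent. SMARCA4 is the ATPase of the SWI/SNF remodelling complexes, which move or evict nucleosomes at promoters and enhancers and counteract Polycomb.

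To show what such promoters look like, the 200 bp upstream of the 5′ end are given for members of 2 gene groups, the WNT ligands and the clustered protocadherins, and, for comparison, for promoters with a peak in 3 groups of constitutively expressed genes. By a rule on motif content, each is the promoter of its group with the most motifs in this window among those whose window overlaps no annotated UTR, and ties went to the promoter farther from a peak or with more matches. For the members, capitals mark G-quadruplex (G4) motifs. Such a motif has 4 guanine runs, each 3 or more bases long and 1 to 7 bases apart, and one on the other strand appears as runs of C. WNT7A (chr3:13921569-13921768, minus strand) encodes a secreted WNT ligand and held 3, all on the gene strand. PCDHAC2 (chr5:140345855-140346054, plus strand) encodes a clustered protocadherin of neuronal surfaces and held 0, as did the other clustered protocadherin promoters. Positions are in hg19, counted from 1. The PCDHAC2 window lies within the bodies of 15 other annotated genes, most of them alpha protocadherins, and the WNT7A window overlaps no other gene.
WNT7A: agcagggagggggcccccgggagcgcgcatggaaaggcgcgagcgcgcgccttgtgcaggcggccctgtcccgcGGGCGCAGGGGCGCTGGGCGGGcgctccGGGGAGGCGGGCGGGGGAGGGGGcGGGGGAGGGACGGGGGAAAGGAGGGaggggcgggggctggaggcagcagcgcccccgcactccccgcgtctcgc
PCDHAC2: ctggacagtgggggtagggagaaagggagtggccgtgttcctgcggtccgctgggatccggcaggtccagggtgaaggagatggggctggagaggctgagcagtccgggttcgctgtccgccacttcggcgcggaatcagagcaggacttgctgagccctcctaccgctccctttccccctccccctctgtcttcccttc

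The nearest peak was 229 kb from the 5′ end of WNT7A and 240.0 kb from that of PCDHAC2. The central 1 kb of these promoters had 73.8% and 64.3% GC. A G4 motif lay in the same 200-bp window of 39.8% of all members, of 32.2% of the promoters with a peak and of 35.0% of all CpG-rich promoters.

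In the promoters with a peak, capitals mark short motifs of transcription factors that are known at CpG islands, and runs of 5 guanines on either strand. RPL10A (chr6:35435978-35436177, plus strand) encodes a protein of the large ribosomal subunit. MRPL41 (chr9:140446131-140446330, plus strand) encodes a mitochondrial ribosomal protein, and PSMD2 (chr3:184016786-184016985, plus strand) a subunit of the regulatory particle of the proteasome. In each, the nearest peak covered the 5′ end, and these peaks were 614, 693 and 736 bp wide. The RPL10A window held matches to NRF1 (GCGCATGC) and ZBTB33 (TCTCGCGA), the MRPL41 window to NFY (CCAAT) and SP/KLF (GGGCGG), and the PSMD2 window to SP/KLF and ZNF143 (ACTACAATT), besides G runs. The capitals differ between the sets and do not compare them: MRPL41 and PSMD2 held 3 and 1 unmarked G4 motifs in these windows, RPL10A held 0, and the WNT7A window holds unmarked SP/KLF letters and G runs.
RPL10A: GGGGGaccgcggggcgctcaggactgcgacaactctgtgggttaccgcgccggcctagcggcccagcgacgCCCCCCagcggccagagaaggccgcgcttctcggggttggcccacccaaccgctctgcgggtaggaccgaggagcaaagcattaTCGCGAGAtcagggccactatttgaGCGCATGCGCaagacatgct
MRPL41: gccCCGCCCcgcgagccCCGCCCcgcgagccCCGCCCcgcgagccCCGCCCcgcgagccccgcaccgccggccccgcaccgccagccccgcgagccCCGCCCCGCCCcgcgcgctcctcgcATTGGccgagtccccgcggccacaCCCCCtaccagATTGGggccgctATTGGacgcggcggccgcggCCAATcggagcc
PSMD2: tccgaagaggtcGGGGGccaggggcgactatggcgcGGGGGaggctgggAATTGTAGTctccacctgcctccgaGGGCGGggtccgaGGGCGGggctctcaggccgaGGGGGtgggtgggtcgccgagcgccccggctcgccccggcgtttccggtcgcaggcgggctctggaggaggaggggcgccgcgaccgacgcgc

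In windows of this length, the NRF1 letters were found in 4.18% of all CpG-rich promoters, ZBTB33 in 1.82%, NFY in 28.7%, SP/KLF in 71.0%, ZNF143 in 0.416% and a G run in 67.6%. A match is a description of the letters in a window and does not mark a bound site.

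The cell label was first compared with marker genes. Of 20 erythroid and progenitor genes, 18 had a peak within 1 kb of the gene 5′ end, among them EPOR, KLF1, TAL1, NFE2 and the globin genes HBE1, HBG1, HBG2 and HBZ. Over all 19229 coding promoters, CpG-rich or not, the share with a peak was 43.5%. HBA1 and HBA2, the alpha globin genes, had none within 1 kb, and all 20 had one within 10 kb. Among the 8 erythroid and progenitor genes with a CpG-rich promoter, a list that also holds GATA2, 3 lacked a peak (37.5%, 13.7 to 69.4%), which is near the overall share. None of the 6 hepatocyte, 6 lymphocyte, 6 neuronal, 6 skeletal muscle and 6 epithelial markers had a peak within 1 kb, and 0, 3, 1, 0 and 3 of them had one within 10 kb. HBA1 and HBA2 were themselves CpG-rich and therefore members, with the nearest peak 3.45 kb and 7.26 kb away. Only 35.9% of simulated 75-base reads from either promoter mapped to 1 place. The paired alpha globin genes are known to be nearly identical, and whether this accounts for the value was not tested.

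The gene groups fell on both sides of the share over all CpG-rich promoters, 37.0%. Of 257 promoters in 14 groups of developmental transcription factors, 196 (76.3%, Wilson interval 70.7 to 81.1%) had no peak. The share was 70.1% of 201 promoters for signalling genes and 83.1% of 71 for cell surface and matrix genes, and genes of excitable cells were also at 83.1% (103 promoters without a peak). It was 43.1% of 195 for membrane transporters, with an interval (36.3 to 50.1%) that holds the overall share. Of their 2 groups, SLC solute carriers lacked a peak at 72 of 156 promoters (46.2%, 38.5 to 54.0%). ABC and P-type transporters lacked one at 12 of 39 (30.8%, 18.6 to 46.4%), and the 2 intervals overlap. For 13 groups of housekeeping genes, matched by symbol, the share was 14.4% of 541 (11.7 to 17.6%). It became 9.09% with stricter CpG limits (at least 60% GC and a CpG ratio of at least 0.75). The lists are read as counts beside the overall share, and promoters within a cluster share their surroundings, so the intervals cover counting error only. Genes in no list numbered 8323, and 35.1% of their promoters had no peak.

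**Figure D1:**
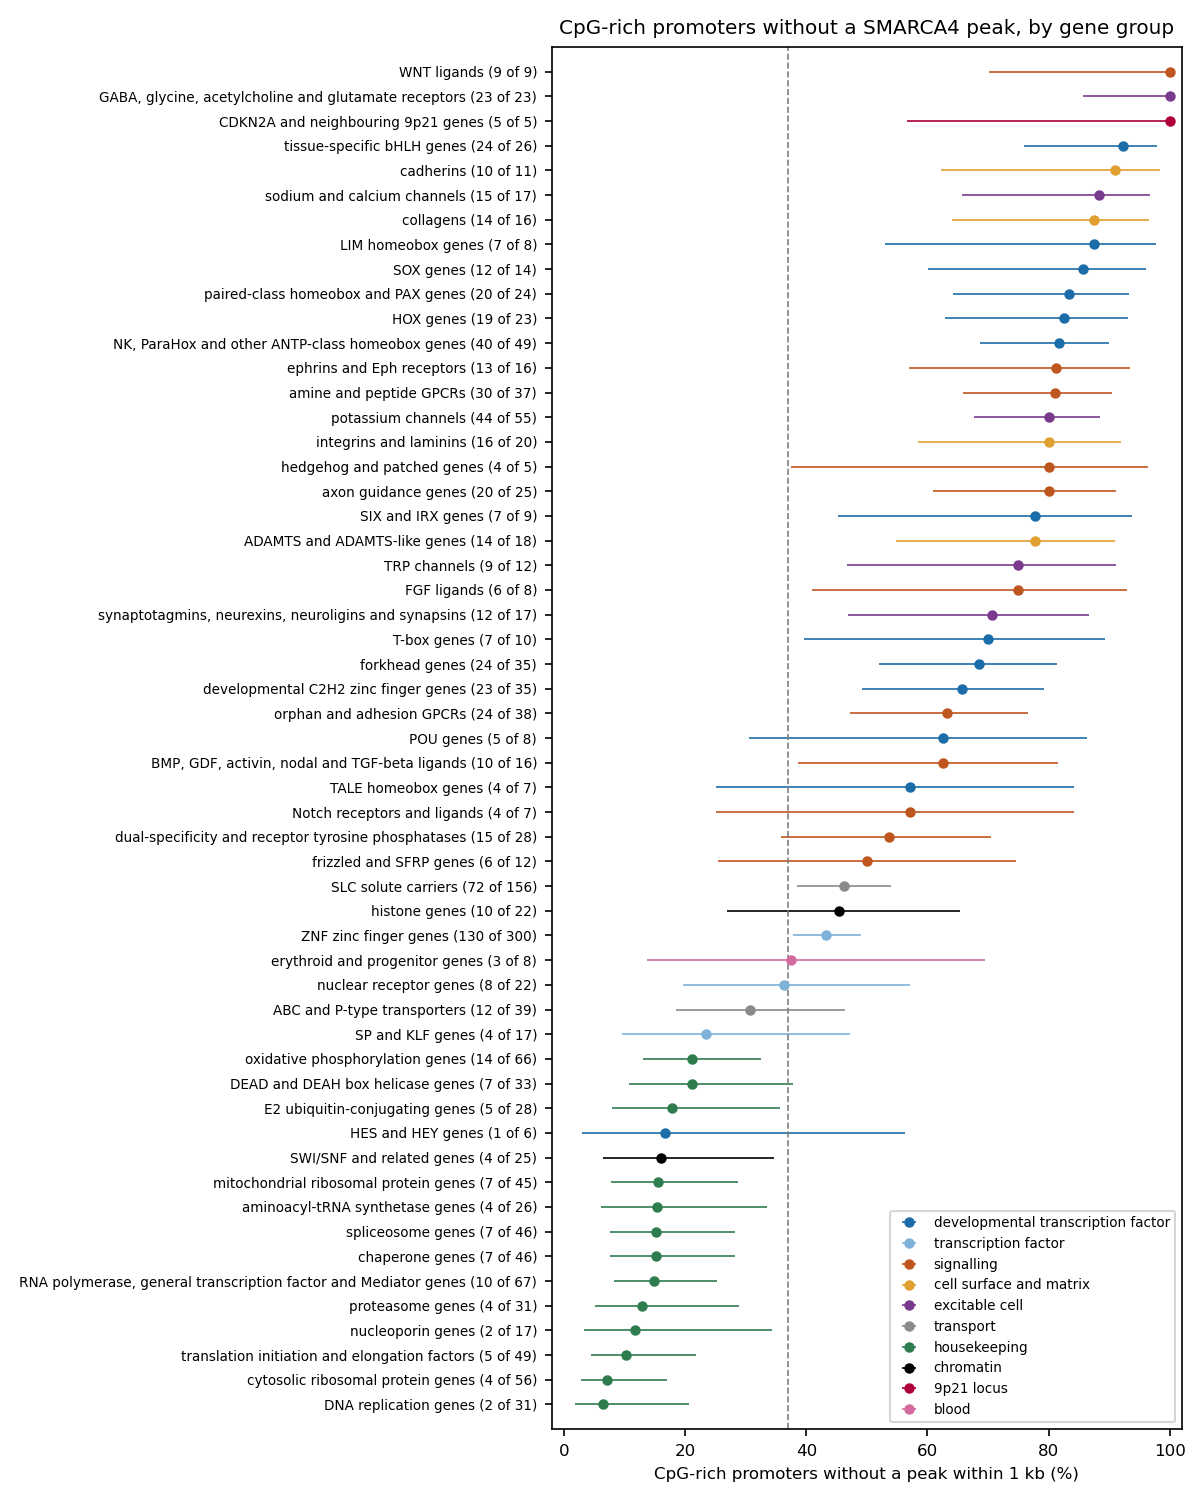
Share of CpG-rich promoters without a peak within 1 kb (x axis, percent) in each gene group with at least 5 CpG-rich promoters, with the number without a peak of the number CpG-rich. Points are shares, bars are 95% Wilson intervals, colours are roles, and the dashed line is the share over all CpG-rich promoters, 37.0%; DNA replication genes (2 of 31) and cytosolic ribosomal protein genes (4 of 56) were among the groups with low shares, and all 9 WNT promoters lacked a peak.

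The HOX genes, homeobox genes that set position along the body axis, illustrate the developmental class. Of 23 CpG-rich HOX promoters, 19 (82.6%) had no peak. The clusters differed: all 6 promoters of the HOXA cluster and all 7 of the HOXD cluster lacked one, as did 2 of 4 in HOXB and 4 of 6 in HOXC. In HOXA the nearest peak was 24.1 to 128 kb away, and in HOXD it was 72.0 to 168 kb away, farthest for HOXD1. In HOXB it was 2.05 to 8.13 kb away, and in HOXC 2.69 to 21.4 kb. HOXB4, HOXB9, HOXC9 and HOXC13, named after their values were seen, were the 4 HOX promoters with a peak. A peak-free stretch of 1144 kb held HOXD1, HOXD3, HOXD4, HOXD8, HOXD9, HOXD12 and HOXD13 together with MTX2, and a stretch of 537 kb held 6 HOXA promoters with EVX1, a homeobox gene at the end of that cluster.

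Other homeobox classes also had more members than promoters with a peak. Of the NK, ParaHox and related genes 40 of 49 had no peak, of the paired-class and PAX genes 20 of 24, of the LIM homeobox genes 7 of 8 and of the sine oculis and Iroquois homeobox genes 7 of 9. BARX2 was the farthest of the NK class, 519 kb from a peak. ALX1, a paired-class factor of the facial skeleton, was 1944 kb away, and ISL1, a LIM factor of motor neurons and heart, was 1726 kb away. IRX1, an Iroquois gene, lay 1794 kb from a peak and had a CpG-rich stretch of 2600 bp and a CpG observed/expected ratio of 0.975. POU4F1, a factor of sensory neurons, lay 803 kb away, and 5 of 8 POU promoters lacked a peak. The TALE class, which includes cofactors of HOX proteins, had 4 of 7 without a peak, with PKNOX2 the farthest at 89.4 kb.

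Tissue-specific bHLH genes, such as those that specify muscle and neurons, had no peak at 24 of 26 promoters. The 2 with a peak were MESP1 and TAL1, named after their values were seen. TAL1 is the bHLH regulator of blood formation and MESP1 a factor of cardiac mesoderm. The muscle regulator MYOD1 lay 293 kb from a peak and the neuronal regulator NEUROD1 83.4 kb. SOX genes lacked a peak at 12 of 14 promoters, farthest at SOX11 (1134 kb), a factor of neural progenitors. The T-box genes lacked one at 7 of 10 (TBX3, 717 kb), the forkhead genes at 24 of 35 (FOXP2, 944 kb) and the developmental C2H2 zinc finger genes at 23 of 35 (FEZF1, 872 kb). Of the HES and HEY genes, relatives of the fly gene hairy, 1 of 6 lacked a peak, a count whose Wilson interval (3.01 to 56.4%) holds the overall share, and the member was HES5, 3.38 kb from a peak. The 3 CpG-rich GATA promoters, GATA2, GATA5 and GATA6, all lacked a peak at the gene 5′ end. GATA2, the regulator of blood progenitors, had its nearest peak 2.37 kb upstream and a peak at another annotated 5′ end of the gene.

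Among transcription factors outside the developmental lists the shares were lower. SP and KLF genes, whose products bind GC boxes, had no peak at 4 of 17 promoters, which were KLF12 (669 kb), KLF14 (11.97 kb), SP9 (8.49 kb) and KLF15 (1.11 kb). Nuclear receptors lacked a peak at 8 of 22 promoters (36.4%, 15.4% with the stricter CpG limits), with ESRRG farthest at 1147 kb. The ZNF genes, most of which encode zinc finger proteins with DNA-binding arrays, lacked one at 130 of 300 (43.3%, 37.8 to 49.0%). ZNF804A was farthest at 1473 kb. With the stricter CpG limits the ZNF share was 36.5% (28.6 to 45.2%), an interval that holds the corresponding overall share, 33.9%. In the small groups of POU, TALE, SP/KLF and nuclear receptor genes, as in the HES and HEY genes, the Wilson interval holds the overall share. That interval covers counting error only and no group was tested. The counts are therefore not read as placing these groups above or below the overall share.

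All 9 CpG-rich WNT promoters lacked a peak. WNT proteins are secreted signals of embryonic patterning and stem cells, and these promoters were GC-rich, with a median of 71.9% GC. Their nearest peaks, listed after the values were seen, were 1.09 kb (WNT9A), 2.88 kb (WNT11), 20.8 kb (WNT1), 29.3 kb (WNT5B), 36.3 kb (WNT7B), 49.5 kb (WNT6), 60.2 kb (WNT3A), 198 kb (WNT2) and 229 kb (WNT7A) away, and WNT11 had a peak at another annotated 5′ end. The frizzled receptors and SFRP antagonists of WNT had no peak at 6 of 12 promoters, farthest at FZD10 (502 kb), and for them and the Notch genes the interval also holds the overall share. Among FGF ligands 6 of 8 lacked one (FGF3, 86.0 kb), among ligands of the BMP and TGF-beta family 10 of 16 (BMP2, 762 kb), among hedgehog pathway genes 4 of 5 (HHIP, a hedgehog antagonist, 452 kb) and among Notch receptors and ligands 4 of 7 (JAG1, a Notch ligand, 162 kb). Guidance molecules of growing axons lacked one at 20 of 25 promoters, and ephrins with their receptors at 13 of 16, where EPHA5 was 1630 kb from a peak. Receptors for amines and peptides lacked one at 30 of 37 promoters, farthest at CHRM3, a muscarinic acetylcholine receptor (2099 kb).

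Genes of excitable cells followed. All 23 CpG-rich promoters of GABA, glycine, acetylcholine and glutamate receptors lacked a peak, at a median distance of 160.2 kb. Potassium channels lacked one at 44 of 55 promoters (80.0%). Sodium and calcium channels lacked one at 15 of 17, with CACNA2D1 at 1235 kb. Of the surface and matrix genes, cadherins lacked a peak at 10 of 11 promoters (CDH8, 2680 kb), collagens at 14 of 16 (COL24A1, 278 kb), ADAMTS genes at 14 of 18 (ADAMTSL1, 1143 kb) and integrins with laminins at 16 of 20 (LAMA1, 388 kb). All 3 CpG-rich clustered protocadherin promoters, PCDHAC1, PCDHAC2 and PCDHGC4, lacked one.

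Promoters of the housekeeping lists mostly had a peak, and the 78 that did not can be described by name in the smaller groups. The lists were matched by symbol and also hold genes such as DDX4, DDX43, COX6A2 and HSPA6. Whether each listed gene is broadly expressed was not checked. Cytosolic ribosomal protein genes lacked a peak at 4 of 56 promoters. Among them RPL37A lay 81.3 kb from a peak and RPS21 4.16 kb away. RPS29 lay 4.02 kb away, but its canonical transcript starts 12784 bp from the gene 5′ end and had a peak there. Proteasome genes lacked a peak at 4 of 31 promoters: PSMA2, PSMC3, PSMG4 and PSMB9, of which PSMG4 and PSMB9 had a peak at the canonical 5′ end. Of the aminoacyl-tRNA synthetase genes 4 of 26 were members, FARSB (53.3 kb), KARS1 (23.4 kb), MARS1 (12.2 kb) and QARS1 (10.5 kb), and MARS1 had a peak at its canonical 5′ end. The replication genes MCM10 (107 kb) and MCM5 (22.8 kb) were the members among 31, and the nucleoporin genes NUP88 (18.9 kb) and NUP50 (6.37 kb, with a peak at another 5′ end) among 17. The share for replication genes, 6.45%, became 12.9% with peaks of at least 200 bp and 10% with 1 promoter per 10 kb. Larger groups gave 14 of 66 for oxidative phosphorylation (COX17, a copper chaperone, 97.6 kb), 10 of 67 for the RNA polymerase and Mediator machinery, 7 of 45 for mitochondrial ribosomal proteins (MRPS9, 292 kb) and 7 of 46 each for the spliceosome (SNRPF, 177 kb) and chaperones (DNAJC13, 305 kb). DEAD and DEAH box helicase genes lacked a peak at 7 of 33 promoters (21.2%), with an interval (10.7 to 37.8%) that holds the overall share. With the stricter CpG limits the share fell outside the interval for oxidative phosphorylation (11.5%), RNA polymerase and Mediator (6.90%), chaperone (6.67%), DEAD and DEAH box helicase (6.25%) and proteasome genes (0%).

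Genes of the SWI/SNF complexes and their relatives lacked a peak at 4 of 25 promoters: BCL11A (327 kb), BCL11B (209 kb), DPF3 (13.2 kb) and DPF1 (5.22 kb), which encode subunits of limited tissue range. DPF1 had a peak at its canonical 5′ end and DPF3 at another annotated 5′ end, so that 8.0% of the group lacked a peak when any transcript 5′ end counted, and 5.88% with the stricter CpG limits. The promoter of SMARCA4 itself had a peak over its 5′ end. Histone genes lacked one at 10 of 22 promoters, with an interval (26.9 to 65.3%) that holds the overall share. The 5 CpG-rich promoters around CDKN2A on 9p21 all lacked a peak: HACD4 (347 kb), MTAP (1118 kb), CDKN2A (1311 kb), CDKN2B (1325 kb) and DMRTA1 (1762 kb). K562 cells are known to lack CDKN2A, and the DNA copy number at these promoters was not analysed here.

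Distance to the nearest peak showed how isolated the members were. To measure both classes alike, peaks within 1 kb were left out. The nearest peak beyond 1 kb was at a median of 55.2 kb from the members (quartiles 17.9 and 159 kb) and of 14.6 kb from the promoters with a peak (4.63 and 39.5 kb). Within 10 kb, 15.3% of the members and 40.3% of the promoters with a peak had such a peak, and within 100 kb 65.3% and 91.9%. The median number of peaks from 1 to 100 kb away was 2 for the members and 5 for the others. The nearest coding 5′ end more than 2 kb away had a peak for 38.1% of the members and 52.6% of the promoters with one. These values come from the list that chose the members and were not tested. The nearest peak of a member lay upstream of the gene in 1954 cases (52.2%), downstream in 1190 (31.8%) and inside the gene in 598 (16.0%). At least 1 peak lay in the gene body beyond 1 kb in 23.3% of members and 39.4% of the others.

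**Figure D2:**
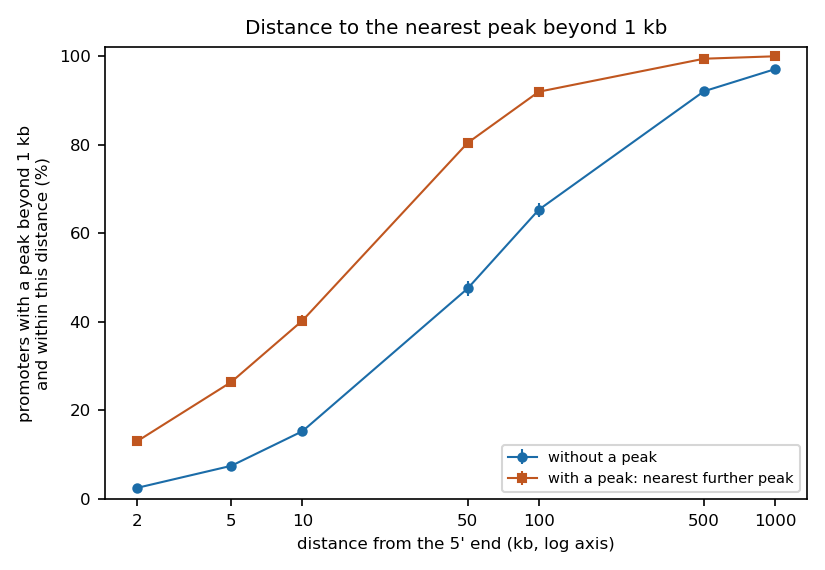
Cumulative share of promoters (y axis, percent) with a peak beyond 1 kb and within the distance on the x axis (kb, log axis), for the 3742 promoters without a peak and the 6366 with one; bars are 95% Wilson intervals. The curve of the promoters without a peak is the lower at every distance, with 15.3% against 40.3% at 10 kb.

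The member farthest from any peak was ADGRL3, an adhesion receptor of neurons, at 4221 kb. SLITRK5, a synaptic adhesion protein, followed at 3414 kb, then DSCC1 (2972 kb), DEPTOR (2954 kb), CHL1 (2930 kb), an unnamed gene, CDH8 (2680 kb), PTPRD (2656 kb), CCN3 (2537 kb) and FLRT2 (2463 kb). CHL1, CDH8, PTPRD and FLRT2 encode cell adhesion or guidance proteins of the nervous system, whereas DSCC1 acts in sister chromatid cohesion and DEPTOR binds mTOR. Of the unnamed gene, on chromosome 9, no simulated read mapped to 1 place.

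At the 1 kb limit the nearest members were MLLT6 (1001 bp), EGR2 (1004 bp, with a peak near its canonical 5′ end) and ITPRIP (1010 bp). The promoters just inside it were PKP4 (996 bp), FBXO27 (995 bp) and BCL2L11 (994 bp). Only 95 members (2.54%) had a peak within 2 kb. On the other side of the limit, a 500-bp window gave 3869 members in place of 3742. The share without a peak was 38.3% with that window and 36.1% with 2 kb, beside 37.0%.

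Members were also found side by side. The longest run of neighbouring coding 5′ ends that were all members held 9 genes over 127 kb of chromosome 19: ZNF419, an unnamed gene, ZNF773, ZNF549, ZNF550, ZIK1, ZNF416, ZNF530 and ZNF134, nearly all zinc finger genes. A run of 8 on chromosome 17 held PIMREG, PITPNM3, KIAA0753, TXNDC17, MED31, C17orf100, SLC13A5 and an unnamed gene over 269 kb. Among the runs of 7, that on chromosome 20 held XRN2, NKX2-4, NKX2-2, PAX1, FOXA2, SSTR4 and THBD over 1746 kb, with NKX2-2, PAX1 and FOXA2 known as regulators of embryonic patterning. Another, on chromosome 14, held RTRAF, NID2, PTGDR, PTGER2, TXNDC16, GPR137C and ERO1A over 706 kb. The run on chromosome 22 held RTL6, PRR5, PRR5-ARHGAP8, ARHGAP8, PHF21B, NUP50 and KIAA0930 over 743 kb. That on chromosome 3 held TUSC2, RASSF1, ZMYND10, NPRL2, CYB561D2, an unnamed gene and TMEM115 over 31.3 kb.

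The rule used the gene 5′ end, and many genes have others. Among the members 2667 (71.3%) had another annotated 5′ end more than 1 kb away, and a peak lay within 1 kb of such an end in 272 of these (10.2%, 9.11 to 11.4%). Counting every other 5′ end, 277 members (7.40%, 6.61 to 8.29%) had a peak at one, and 191 (5.10%) at that of a coding transcript. The canonical transcript started more than 1 kb from the gene 5′ end in 364 members, and 101 of them (27.7%) had a peak there. Distances printed for single genes are from the gene 5′ end and can depend on this choice. From its canonical 5′ end FOXP2 lay 1272 kb from a peak, beside 944 kb from the gene 5′ end. For ADAMTSL1 these distances were 575 kb and 1143 kb.

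Base composition differed between the classes in measures that the rule had not used to separate them. The median GC content was 65.3% in the members and 64.6% in the promoters with a peak. The probability that a member ranked above a promoter with a peak (AUC) was 0.527 (95% Hanley-McNeil interval 0.516 to 0.539), a small difference. The median CpG observed/expected ratio was 0.779 in the members and 0.818 in the others, with an AUC of 0.410 (0.399 to 0.422). In steps of 0.1, the share without a peak fell from 49.2% of 1713 promoters at a ratio of 0.6 to 0.7, through 40.5%, 33.0% and 28.0%, to 24.0% of 288 promoters at 1 or more. Along GC it was 33.9% at 55 to 58% GC, changed little up to 67% GC, and was 45.1% at 76% or more. The median length of the unbroken CpG-rich stretch was 900 bp in both classes, with an AUC of 0.480 (0.468 to 0.491) that reversed to 0.520 (0.505 to 0.536) with the stricter CpG limits. The share without a peak was 47.2% below 300 bp, 34.2% at 1000 to 1500 bp and 43.9% of 82 promoters at 2500 bp or more, so it did not run in 1 direction with length. Promoters are not replicates, and these intervals cover counting error over promoters only.

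**Figure D3:**
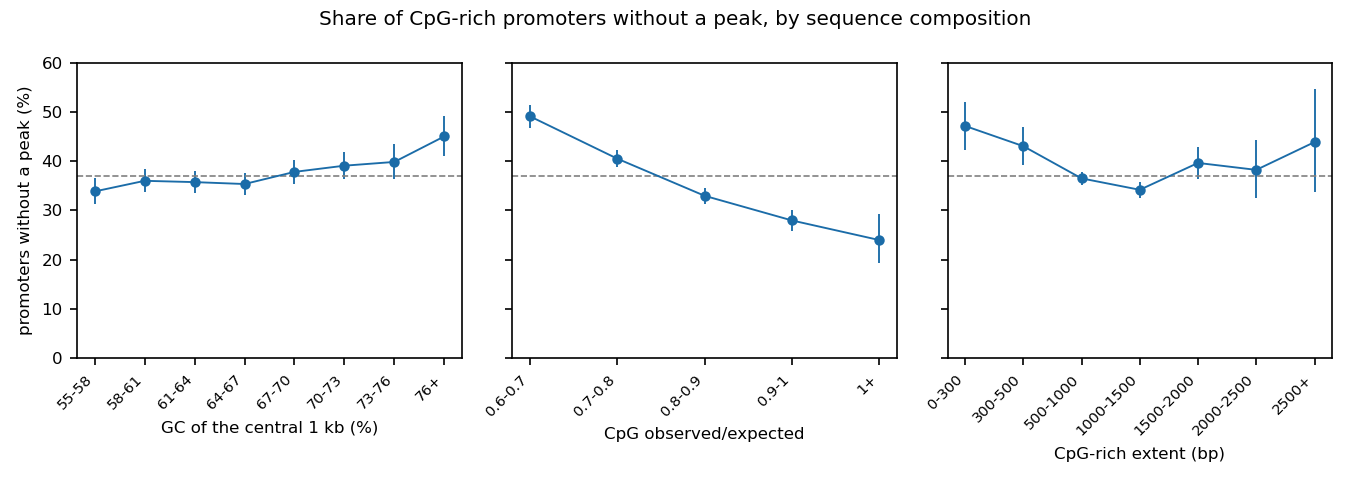
Share of CpG-rich promoters without a peak (y axis, percent) in classes of GC, CpG observed/expected ratio and length of the CpG-rich stretch; points are shares, bars are 95% Wilson intervals and the dashed line is 37.0%. The share falls with the CpG observed/expected ratio from 49.2% to 24.0% and is 33.9% in the lowest GC class and 45.1% in the highest.

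The difference in CpG ratio was not seen alike in all roles. Within housekeeping genes the 78 members had a median ratio of 0.737 and the 463 promoters with a peak 0.817 (AUC 0.342, 0.283 to 0.402). Within the other transcription factors it was 0.753 against 0.785 (AUC 0.410, 0.350 to 0.471). Within developmental transcription factors the medians were 0.808 and 0.816 (AUC 0.484, 0.401 to 0.568), and within signalling genes 0.804 and 0.807 (AUC 0.498, 0.410 to 0.585). GC also differed by role: it was lower in the members among developmental transcription factors (65.8% against 68.0%, AUC 0.385, 0.301 to 0.468) and the other transcription factors (60.4% against 63.3%, AUC 0.354, 0.296 to 0.412), opposite to the difference over all promoters. The difference between roles was not tested.

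**Figure D4:**
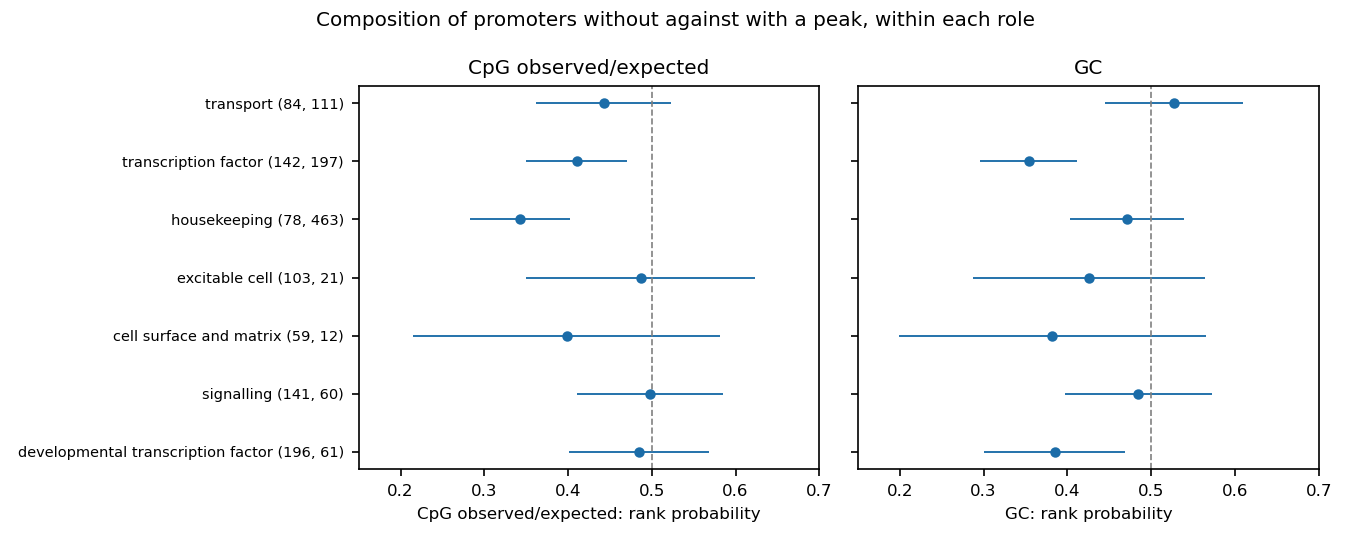
Probability that a promoter without a peak ranks above one with a peak (x axis) for CpG observed/expected ratio and GC within each role; numbers in parentheses are promoters without and with a peak, points are estimates, bars are 95% Hanley-McNeil intervals and the dashed line is 0.5. For the CpG ratio housekeeping genes lie lowest, at 0.342, and signalling genes nearest to the line, at 0.498.

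The longest CpG-rich stretches among the members were those of PRDM16 (4100 bp), a regulator of brown fat and blood stem cells, FOXC1 (3700 bp), INSM1 (3450 bp) and RGPD4 (3450 bp). They lay 411, 92.9, 578 and 80.1 kb from a peak. Only 35.9% of the simulated reads at RGPD4, a gene of a recent duplicated family, mapped to 1 place.

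A G4 motif was present within 500 bp of the 5′ end in 77.2% of the members and 73.1% of the promoters with a peak, an odds ratio of 1.25 (95% Woolf interval 1.14 to 1.37). Within classes of 2 percentage points of GC the Mantel-Haenszel odds ratio was 1.18 (1.07 to 1.31). In a logistic fit that also held GC, the CpG ratio, the length of the CpG-rich stretch, divergent neighbours and read uniqueness, it was 1.05, with an interval that spans 1 and starts at 0.941. Within roles the intervals all spanned 1 and the direction differed: 82.7% of the members and 88.5% of the others had a motif among developmental transcription factors, and 65.4% and 59.0% among housekeeping genes. At least 3 motifs were present in 30.7% of the members and 24.3% of the others. A motif on the gene strand was present in 56.6% and 52.4%. ITIH5 had the most of all members, 17, at 73.6% GC and 151 kb from a peak. P2RX2, FIGNL2, GRTP1 and PLPP2 had 12 each and lay 57.5, 35.7, 29.8 and 23.8 kb from a peak. A motif is a match in sequence and does not show a folded G4, and folding was not examined here. The paper reports SMARCA4 signal enriched at G4s mapped in K562 chromatin. It reports no particular enrichment at sequences that could form a G4 but were not folded there.

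Motifs of transcription factors that are known at CpG islands were rarer in the members. They were searched on both strands from 250 bp upstream to 50 bp downstream of the 5′ end, and 14 motifs were compared with no adjustment of the intervals. YY1 (AANATGGCG) was found in 2.38% of the members and 6.68% of the others (odds ratio 0.341, 0.270 to 0.430), and in 5.09% of all CpG-rich promoters. The ETS letters (CCGGAAGT) were found in 4.36% and 9.74% (0.422, 0.353 to 0.504), and ZBTB33 in 1.28% and 2.95% (0.427, 0.310 to 0.588). ZNF143 was found in 0.267% and 0.597% (0.446, 0.222 to 0.897, spanning 1 with canonical 5′ ends), NRF1 in 4.01% and 6.53% (0.597, 0.493 to 0.723) and CRE (TGACGTCA) in 2.51% and 3.88% (0.638, 0.502 to 0.812). The MYC E-box (CACGTG) was found in 8.12% and 11.4% (0.690, interval below 1). For NFY (0.868) and SP/KLF (0.894) the odds ratios were nearer to 1, and the SP/KLF interval spanned 1 in 3 alternatives. Those of AP-1 (TGANTCA), the letters bound by GATA factors (AGATAA) and part of the REST site (TCAGCACC) had intervals that span 1, although within 500 bp of the 5′ end the AP-1 interval lay below 1 (0.850, 0.741 to 0.974). A TATA box (TATAAA) was found in 5.08% of the members and 4.15% of the others (1.24, interval from 1.02, which spanned 1 in 5 alternatives), and a run of 5 guanines in 79.2% and 74.4% (1.31, 1.19 to 1.44). A G run can lie inside a G4 motif or overlap the SP/KLF letters. Within GC classes these 11 odds ratios kept their side of 1.

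**Figure D5:**
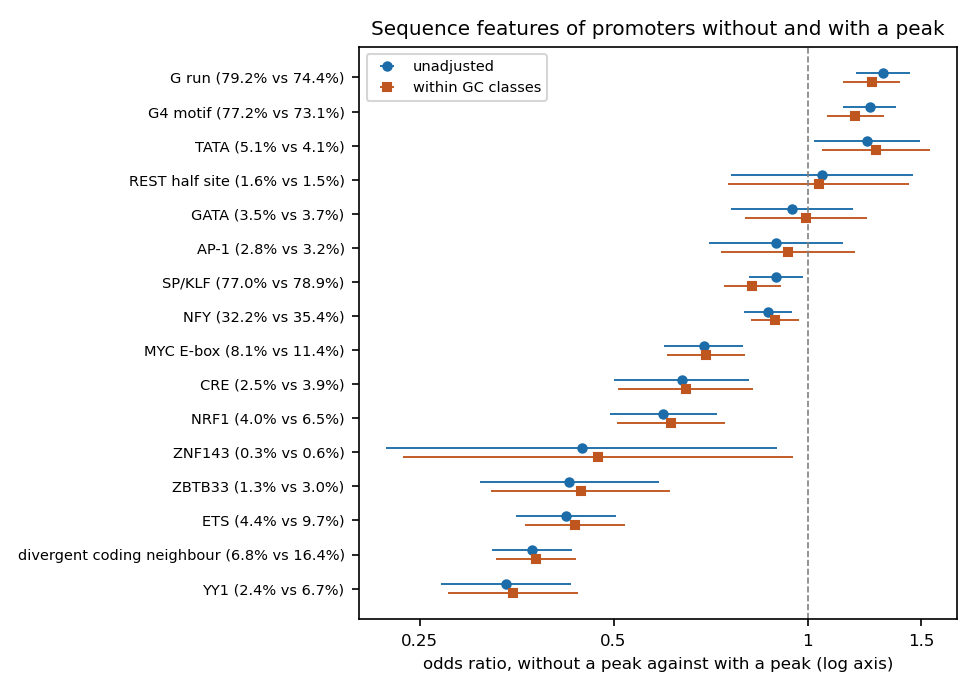
Odds ratios (x axis, log axis) of promoters without a peak against promoters with one for each sequence feature, with the percentages of both classes in parentheses; circles are unadjusted with 95% Woolf intervals and squares are Mantel-Haenszel values within GC classes with their 95% intervals. YY1 is lowest at 0.341 and the G run highest at 1.31.

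A coding gene on the opposite strand with its 5′ end within 1 kb upstream, the arrangement of a bidirectional promoter, was present at 255 members (6.81%) and at 1043 promoters with a peak (16.4%), an odds ratio of 0.373 (0.323 to 0.431). Since both genes of such a pair share 1 promoter region, the value was also taken with 1 promoter per 10 kb, where its interval also lay below 1. In the logistic fit over all 10108 promoters it was 0.396 (0.343 to 0.458). There the odds of having no peak rose 1.27-fold (1.20 to 1.34) per SD of GC (6.11 percentage points) and changed 0.640-fold (0.608 to 0.675) per SD of the CpG ratio (0.102). For the CpG-rich length the odds ratio was 1.05 per SD (0.994 to 1.12).

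Read uniqueness also differed. At least 95% of simulated 75-base reads mapped to 1 place at 84.0% of the members and 79.9% of the others, but under 50% did so at 131 members and 29 others, and no read did at 27 and 2. In the fit the odds ratio was 0.847 per SD of uniqueness (0.812 to 0.885). It reversed to 1.17 (1.12 to 1.23) when only promoters with at least 95% unique reads were fitted. Among the 8229 promoters with at least 95% unique reads, 38.2% had no peak, close to the 37.0% over all.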

How the data were processed

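SMARCA4 was measured by ChIP-seq in K562 cells, in 3 ChIP and 3 input libraries. Per the study's methods, the authors aligned 75-base single-end reads to hg19, called peaks per replicate with MACS2 (q threshold 0.05) and kept regions of at least 2 of the 3 replicates. The processed file that was used here is a list of positions in 3 columns, without heights, scores or replicate values. Depth per library is not in that list. The paper's reporting summary gives the depth of each library and the peaks per replicate, which were not used here. Precision is therefore given only by the number of promoters counted.

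Gene 5′ ends came from GENCODE 44 lifted to GRCh37, and sequence from the same build. No peak passed a chromosome end of that genome. Promoters were compared with Python 3.11.15, numpy 2.4.6, scipy 1.17.1, pandas 2.3.3, pysam 0.24.0 and statsmodels 0.14.6. CpG-rich length was the unbroken run of 200-bp windows, in steps of 50 bp, that met both limits. Reads of 75 bases cut every 25 bases within 1 kb of each 5′ end were mapped back with minimap2 2.31-r1302, and those with a mapping quality of 10 or more counted as unique. The statistics were tested on simulated data.

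The members and lists were chosen with earlier results of these data known. The 58 gene groups were matched by symbol, so a few hold genes that only share a name, such as ITGB3BP among integrins and SMARCA5 among SWI/SNF genes. Expression of the genes in the housekeeping lists was not examined. Named genes were the 10 members farthest from a peak, the farthest of each group with at least 5 promoters, up to 5 members of groups with under 30% without a peak, the 3 promoters on each side of the limit, the 5 longest CpG-rich stretches, the 5 highest G4 counts and the longest runs. Not every gene this rule gives is printed, and others were named after their values were seen. Alternatives were peak windows of 500 bp and 2 kb, peaks of at least 200 bp, GC of at least 60% with a CpG ratio of at least 0.75, canonical or any transcript 5′ ends, uniquely mapping promoters, 1 promoter per 10 kb, other motif settings and, chosen after seeing the data, no readthrough or unnamed genes and the divergent neighbour in the logistic fit.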

Additional observations from a re-analysis of the deposited data

How the results depend on the processing

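No paired analysis was possible because the peak list pools the replicates and gives no value per replicate, and for the same reason no replicate could be left out in turn. The share without a peak was 38.3% with a 500-bp window, 36.1% with 2 kb, 40.6% with peaks of at least 200 bp, 33.9% with the stricter CpG limits, 34.3% when a peak at any transcript 5′ end counted, 38.2% in uniquely mapping promoters and 39.3% with 1 promoter per 10 kb. These alternatives redefine the members or the promoters counted. The median distance to the nearest peak beyond 1 kb was 59.1 kb with 1 promoter per 10 kb, 60.8 kb when any transcript 5′ end counted and 61.2 kb with the stricter CpG limits. The share with a peak at another 5′ end, by the same window and peaks as the promoter itself, was 7.65% with the 500-bp window, 8.09% with 2 kb and 6.70% with peaks of at least 200 bp, all within the interval around 7.40%. The share of housekeeping genes without a peak was 9.09% with the stricter CpG limits and 19.2% with peaks of at least 200 bp.

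With the stricter CpG limits the AUC of the CpG-rich length was 0.520, reversed from 0.480, and the cause was not tested. In the logistic fit the odds ratio per SD of that length was 1.08 with 1 promoter per 10 kb, 1.09 with the stricter CpG limits, 1.09 with canonical 5′ ends, 1.08 when any transcript 5′ end counted, 1.07 with the 500-bp window and 1.06 without readthrough or unnamed genes, with intervals above 1. The odds ratio of the G4 motif spanned 1 in that fit (1.05). Among uniquely mapping promoters the odds ratio of read uniqueness reversed to 1.17, where only values of at least 95% were left. Of 175 values of the main results under alternatives, 154 kept their side of the threshold or stayed within the interval. Of the 14 motifs, 8 to 10 had intervals below 1 in each setting and 0 to 2 above 1. The interval came to span 1 for the TATA box in 5 alternatives, for SP/KLF in 3, for ZNF143 in 1 and for the G run in 1, and came to lie below 1 for AP-1 in 1. Peaks carry no height, so weak binding below the authors' threshold cannot be told from none.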

Other observations

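The share of CpG-rich promoters without a peak varied between chromosomes. It was lowest on chromosome 19, with 216 of 754 promoters (28.6%, 25.5 to 32.0%), and highest on chromosome 13, with 109 of 210 (51.9%, 45.2 to 58.6%), and chromosome 18 was at 50.6%. On chromosome 19 the members were nonetheless found in blocks: a peak-free stretch of 911 kb held 12 members, among them the imprinted gene PEG3 and its neighbours ZIM2 and USP29 with 8 ZNF or ZFP genes, and another of 883 kb held 9 ZNF genes.

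Members also differed in gene structure. Their genes had a median length of 41.7 kb against 31.7 kb for genes with a peak at the promoter (AUC 0.555, 0.543 to 0.567), and a median of 5 annotated transcript 5′ ends against 7 (AUC 0.407, 0.396 to 0.418). The number of annotated ends depends on how much transcript evidence a gene has, and whether it bears on the difference was not tested.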
